A study of Mus musculus with 8 samples.

Results

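Immediate early genes and genes of the dissociation response are described here, a set of 44 genes chosen by name with earlier results of these data known. Of these, 43 were measured among 18782 genes with a probe set of exactly 1 symbol. Fosl1, an AP-1 subunit, was not, since its 2 probe sets carry several symbols. Where a gene had more than 1 such probe set, the brightest was used. Socs3 was the 1 member to which this applied. The members fall into 4 roles: 9 measured AP-1 subunits, 13 zinc finger, nuclear receptor and other transcription factors, 11 feedback phosphatases and inhibitors, and 10 growth arrest, stress and other early genes.

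Immediate early genes are switched on within minutes when a cell is stimulated or stressed, before any new protein has been made. Signals through MAP kinases and cyclic AMP act on factors already bound at their promoters, among them SRF with its ternary complex partners and CREB. Many of the first products are transcription factors, such as the AP-1 and EGR proteins, and others are phosphatases and RNA-binding proteins that shut the same signals off again. In kidney and other solid tissues the same genes are known to rise when tubules or cells are freed by enzymes and sorted.

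The samples were distal convoluted tubules (DCT), a short transporting stretch of the nephron, collected as fluorescent tubule pieces on a large-particle sorter (COPAS). There were 4 TBC1D4-deficient samples and 4 wild-type samples, each read on its own array, from male C57/Bl6 mice aged 8 weeks. TBC1D4 (AS160) acts on Rab GTPases and holds back the delivery of transporters to the cell surface. Mice of both genotypes also carried the PV-EGFPwt/tg transgene, in which the parvalbumin promoter drives EGFP, so the tubules collected are those with an active parvalbumin promoter. The labels leave out how the TBC1D4 gene was inactivated and how, or for how long, the kidneys were digested. They also do not say whether the samples are from separate mice, so the p-values below measure the spread between samples, which may be technical.

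The promoters of the members show which of the known control elements lie close to their starts, and 7 are printed because the values below turn on these genes. They are the 250 bases before the first listed start in RefSeq (GRCm38.p6), written 5′ to 3′ on the gene's own strand, and 33 of the 43 measured members had an entry. Capitals mark matches, on either strand, to the cyclic AMP response element (CRE, TGACGTCA), the shorter CRE half-site (TGACG), the EGR site (GCGNGGGCG) and the CArG box, the element bound by SRF. Each CRE holds 2 overlapping half-sites.
Fos (chr12:85473640-85473889, plus strand): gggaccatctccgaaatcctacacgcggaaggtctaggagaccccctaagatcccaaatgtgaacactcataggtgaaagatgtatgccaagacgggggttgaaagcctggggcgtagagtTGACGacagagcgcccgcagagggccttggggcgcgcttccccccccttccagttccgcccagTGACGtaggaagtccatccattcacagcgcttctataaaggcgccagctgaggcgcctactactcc
Atf3 (chr1:191183334-191183583, minus strand): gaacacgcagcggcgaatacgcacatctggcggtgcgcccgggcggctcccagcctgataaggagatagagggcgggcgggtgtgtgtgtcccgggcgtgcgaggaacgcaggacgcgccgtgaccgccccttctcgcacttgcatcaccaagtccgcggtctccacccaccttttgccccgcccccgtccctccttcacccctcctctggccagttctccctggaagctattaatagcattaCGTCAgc
Nr4a1 (chr15:101266596-101266845, plus strand): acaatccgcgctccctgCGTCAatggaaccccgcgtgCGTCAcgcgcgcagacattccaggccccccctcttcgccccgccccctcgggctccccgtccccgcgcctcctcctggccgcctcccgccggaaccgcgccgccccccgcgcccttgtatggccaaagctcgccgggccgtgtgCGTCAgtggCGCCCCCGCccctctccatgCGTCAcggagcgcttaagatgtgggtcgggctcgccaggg
Btg2 (chr1:134079156-134079405, minus strand): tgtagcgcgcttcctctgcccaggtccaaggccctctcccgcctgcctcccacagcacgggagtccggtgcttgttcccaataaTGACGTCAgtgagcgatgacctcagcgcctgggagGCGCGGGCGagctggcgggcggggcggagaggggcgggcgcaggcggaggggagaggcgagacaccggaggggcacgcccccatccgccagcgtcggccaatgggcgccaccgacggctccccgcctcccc
Dusp1 (chr17:26508473-26508722, minus strand): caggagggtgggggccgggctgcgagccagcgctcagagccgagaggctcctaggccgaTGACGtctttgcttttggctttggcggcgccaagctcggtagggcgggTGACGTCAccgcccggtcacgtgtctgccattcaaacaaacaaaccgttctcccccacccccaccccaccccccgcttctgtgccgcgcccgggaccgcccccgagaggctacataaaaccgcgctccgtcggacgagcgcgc
Zfp36 (chr7:28379229-28379478, minus strand): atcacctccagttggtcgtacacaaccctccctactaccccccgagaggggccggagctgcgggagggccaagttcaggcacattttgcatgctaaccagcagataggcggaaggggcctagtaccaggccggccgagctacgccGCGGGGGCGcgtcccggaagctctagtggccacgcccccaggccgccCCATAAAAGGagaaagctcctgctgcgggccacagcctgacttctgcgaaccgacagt
Ier3 (chr17:35821463-35821712, plus strand): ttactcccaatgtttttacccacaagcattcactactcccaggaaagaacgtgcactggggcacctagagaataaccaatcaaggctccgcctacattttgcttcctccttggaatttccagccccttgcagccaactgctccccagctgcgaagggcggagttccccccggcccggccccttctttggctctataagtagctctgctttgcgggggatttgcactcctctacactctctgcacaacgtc

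Matches to the half-site stood at bases -129 to -125 and -66 to -62 from the start of Fos. A full CRE stood at -166 to -159 in Btg2 and at -143 to -136 in Dusp1, and Zfp36 had a CArG box at -58 to -49. Nr4a1 had 4 half-sites and an EGR site, and Ier3 had no match to any of these letters in this window. Over the 33 member promoters, the half-site was found in 17 (51.5%), against 17.9% of 27025 promoters, and the EGR site in 12 (36.4%), against 4.65%. The full CRE was found in 3 (9.09%), against 1.62%, and the CArG box in 2 (6.06%), against 1.4%. The AP-1 site (TGANTCA) was found in 0 of the 33, against 6.87% of all promoters. Member promoters were richer in G and C than most, with a median of 64.8% against 52%. The part of base composition in these shares was not tested. A match is a match of letters, not a measured site of binding, and sites outside the 250 bases were not searched.

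The arrays were alike as a whole. Their median intensities lay between 8.41 and 9.03, and the Pearson correlation between any 2 arrays was 0.993 to 0.997 on the log2 scale, on which every level below is given and on which a difference of 1 is a 2-fold difference. The labels matched the targeted gene, since Tbc1d4 had an intensity of 4.64 to 6.59 in TBC1D4-deficient arrays and 95.6 to 122.8 in wild-type arrays (log2 difference -4.27, limma adjusted p = 6.35e-08). Slc12a3, the sodium chloride cotransporter that defines the DCT, stood at 11.47 to 11.51 in TBC1D4-deficient arrays and 11.45 to 11.56 in wild-type arrays. Pvalb, whose promoter drives the EGFP, stood at 9.66 to 9.85 in TBC1D4-deficient arrays and 9.57 to 9.74 in wild-type arrays. The files hold no detection call, so a low level cannot be told from background. Of the 43 members, 20 had a mean level of at least 5 and are called bright below.

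**Figure D1:**
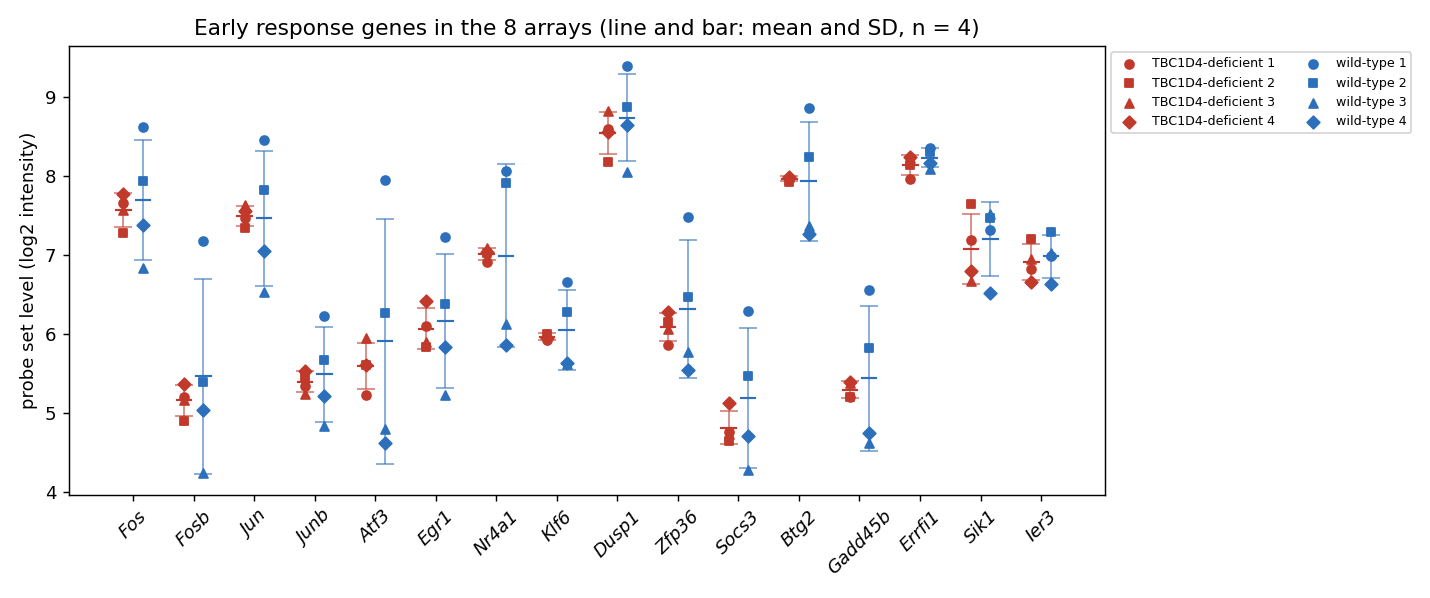
The log2 level of 16 early response genes is plotted for each of the 8 arrays, TBC1D4-deficient (red) left of wild-type (blue), with the mean and SD over 4 arrays as lines and bars. For Fos, Jun, Atf3, Nr4a1 and Btg2 the TBC1D4-deficient points lie close together inside the range of the wild-type points, while Sik1 spreads as widely in both genotypes.

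The AP-1 subunits had a median SD of 0.14 in TBC1D4-deficient arrays and 0.60 in wild-type arrays, and no other role had a larger wild-type median. Fos, whose protein pairs with Jun proteins to form AP-1, is read by probe set 10397346 (chromosome 12). Its level was 7.66, 7.28, 7.57 and 7.77 in TBC1D4-deficient replicates 1 to 4, against 8.61, 7.94, 6.84 and 7.37 in wild-type replicates 1 to 4. Wild-type replicate 1 was the highest array and wild-type replicate 3 the lowest, and the 4 TBC1D4-deficient arrays lay between them. The mean was 7.57 ± 0.21 in TBC1D4-deficient arrays and 7.69 ± 0.76 in wild-type arrays (SD, n = 4 each), a difference of -0.12 with a 95% interval of -0.81 to 0.56 and a limma adjusted p of 0.9999. From lowest to highest array, Fos spanned 1.41-fold in TBC1D4-deficient tubules and 3.43-fold in wild-type tubules.

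Jun (probe set 10514466, chromosome 4), the partner of Fos, read 7.46, 7.34, 7.63 and 7.56 in the TBC1D4-deficient arrays, against 8.46, 7.82, 6.53 and 7.04 in the wild-type arrays, in the order of the replicates. Its mean was 7.50 ± 0.13 in TBC1D4-deficient arrays and 7.46 ± 0.85 in wild-type arrays (SD, n = 4 each), over spans of 1.23-fold in TBC1D4-deficient arrays and 3.82-fold in wild-type arrays. Junb (probe set 10580282, chromosome 8), another Jun protein, read 5.34, 5.46, 5.23 and 5.53 in TBC1D4-deficient arrays, against 6.23, 5.66, 4.84 and 5.22 in wild-type arrays. Both genes placed the wild-type arrays in the order that Fos did, and both kept every TBC1D4-deficient array inside the wild-type range.

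Fosb (probe set 10560481, chromosome 7), a Fos protein best known from neurons, had 5.20, 4.90, 5.16 and 5.36 in TBC1D4-deficient replicates 1 to 4, against 7.17, 5.39, 4.24 and 5.04 in wild-type replicates 1 to 4. The TBC1D4-deficient arrays thus spanned 1.38-fold and the wild-type arrays 7.63-fold. Atf3 (probe set 10361091, chromosome 1), a stress-induced factor of the ATF family that can bind with Jun proteins, had 5.22, 5.60, 5.94 and 5.61 in TBC1D4-deficient replicates 1 to 4, against 7.95, 6.27, 4.79 and 4.62 in wild-type replicates 1 to 4. Atf3 had the widest span of any member, 1.64-fold in TBC1D4-deficient arrays and 10.1-fold in wild-type arrays. The mean of Atf3 was 5.59 ± 0.29 in TBC1D4-deficient arrays and 5.91 ± 1.55 in wild-type arrays (SD, n = 4 each), and the interval of its difference, -1.67 to 1.04, leaves large changes either way undecided.

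Jund (probe set 10572456, chromosome 8), a Jun protein that most resting cells already make, was steadier, at 6.72 to 6.94 in TBC1D4-deficient arrays and 6.69 to 7.08 in wild-type arrays. Mafk, a small Maf protein without an activation domain, had a mean of 4.93 ± 0.14 in TBC1D4-deficient arrays and 4.89 ± 0.19 in wild-type arrays (SD, n = 4 each). Fosl2 and Maff were dim, with means below 3 in both genotypes. Of the 9 measured AP-1 subunits, 7 had the lower mean in TBC1D4-deficient tubules and 2 the higher, with a median difference of -0.09, and 0 passed the limma test after adjustment or had an unadjusted p under 0.05.

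Among the other transcription factors, Egr1, Klf6 and Nr4a1 were the bright members. Egr1 (probe set 10454782, chromosome 18), a zinc finger factor induced by growth factors, had 6.10, 5.84, 5.90 and 6.41 in TBC1D4-deficient replicates 1 to 4, against 7.22, 6.38, 5.23 and 5.83 in wild-type replicates 1 to 4. Nr4a1 (Nur77, probe set 10427035, chromosome 15), an orphan nuclear receptor induced within minutes, had 6.91, 7.03, 7.09 and 7.03 in TBC1D4-deficient replicates, against 8.06, 7.91, 6.12 and 5.86 in wild-type replicates. Of the wild-type arrays, replicates 1 and 2 were above every TBC1D4-deficient array for Nr4a1 and replicates 3 and 4 below every one. Its arrays spanned 1.13-fold in TBC1D4-deficient tubules and 4.58-fold in wild-type tubules, around means of 7.01 ± 0.08 in TBC1D4-deficient arrays and 6.99 ± 1.16 in wild-type arrays (SD, n = 4 each).

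Klf6 (probe set 10403352, chromosome 13), a Krüppel-like factor induced by injury, had 5.92, 6.00, 5.99 and 5.95 in TBC1D4-deficient replicates 1 to 4, against 6.65, 6.27, 5.62 and 5.63 in wild-type replicates 1 to 4. The 4 TBC1D4-deficient values lay within 1.06-fold of each other. Egr2 and Nr4a2, relatives of Egr1 and Nr4a1, were dimmer, at 2.60 to 2.80 and 3.93 to 4.20 in TBC1D4-deficient arrays and 2.14 to 3.65 and 3.70 to 4.64 in wild-type arrays. Egr3 ran the other way in its spread, with an SD of 0.23 in TBC1D4-deficient arrays and 0.06 in wild-type arrays, at a dim mean level of 3.07. Klf2, Klf4, Nr4a3, Csrnp1, Myc, Cebpb and Cebpd all had mean levels below 5. Of the 13 factors, 8 had the lower mean in TBC1D4-deficient tubules and 5 the higher, the median difference was -0.03, and 0 passed the test.

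The feedback genes held the brightest member. Dusp1 (MKP-1, probe set 10449284, chromosome 17), a phosphatase that switches off p38, JNK and ERK, had 8.60, 8.18, 8.82 and 8.55 in TBC1D4-deficient replicates 1 to 4, against 9.39, 8.87, 8.05 and 8.65 in wild-type replicates 1 to 4. Its means were 8.54 ± 0.27 in TBC1D4-deficient arrays and 8.74 ± 0.55 in wild-type arrays (SD, n = 4 each), a difference of -0.20 (95% interval -0.74 to 0.34). Zfp36 (tristetraprolin, probe set 10561453, chromosome 7), which leads AU-rich messenger RNAs to decay, had 5.85, 6.15, 6.06 and 6.28 in TBC1D4-deficient arrays, against 7.48, 6.46, 5.77 and 5.54 in wild-type arrays. Both genes were highest in wild-type replicate 1, and their groups overlapped.

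Socs3 (probe set 10393449, chromosome 11), an inhibitor of cytokine receptor signalling, had 4.76, 4.64, 4.73 and 5.12 in TBC1D4-deficient replicates 1 to 4, against 6.28, 5.47, 4.27 and 4.70 in wild-type replicates 1 to 4. The difference of -0.37 was the lowest of any member, and its interval was -1.16 to 0.42. The dimmer probe set of Socs3, at a mean level of 3.21, gave a difference of -0.0059, so the 2 probe sets did not give the same size. It read 2.84, 3.14, 3.27 and 3.58 in TBC1D4-deficient replicates 1 to 4, against 3.19, 3.53, 3.03 and 3.10 in wild-type replicates 1 to 4. Its wider span was thus in the TBC1D4-deficient arrays. The spread of Socs3 and its correlation with Fos given below rest on the brighter probe set.

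Errfi1 (probe set 10510574, chromosome 4) or Mig6, an inhibitor of the EGF receptor, was bright, at 7.96, 8.14, 8.22 and 8.24 in TBC1D4-deficient replicates 1 to 4 and 8.35, 8.30, 8.09 and 8.16 in wild-type replicates 1 to 4. Its difference was -0.09 with an interval of -0.28 to 0.10. Dusp6, a phosphatase specific for ERK, had an SD of 0.10 in TBC1D4-deficient arrays and 0.24 in wild-type arrays. Sik1 (probe set 10449741, chromosome 17), a kinase induced by cyclic AMP that restrains CREB coactivators, followed another order, with 7.18, 7.65, 6.66 and 6.80 in TBC1D4-deficient arrays, against 7.31, 7.47, 7.51 and 6.52 in wild-type arrays, and was picked for naming after its values were seen. Sik1 was high and low in both genotypes, with an SD of 0.44 in TBC1D4-deficient arrays and 0.47 in wild-type arrays.

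Dusp2 (probe set 10475782, chromosome 2), a nuclear MAP kinase phosphatase, was dim, with 2.19, 2.08, 2.07 and 2.14 in TBC1D4-deficient replicates 1 to 4, against 2.52, 2.22, 2.31 and 2.35 in wild-type replicates 1 to 4. It was the 1 member whose groups did not overlap, with every TBC1D4-deficient array below every wild-type array. Its difference was -0.23 (95% interval -0.39 to -0.07), with an unadjusted limma p of 0.0104 and an adjusted p of 0.9999, so it did not pass. Of the 11 feedback genes, 10 had the lower mean in TBC1D4-deficient tubules and 1 the higher, with a median difference of -0.15, and 0 passed the test.

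Among the growth arrest and stress genes, Btg2 had the most unequal spread. Btg2 (probe set 10357875, chromosome 1), an antiproliferative gene that p53 can induce, had 7.97, 7.92, 7.99 and 7.98 in TBC1D4-deficient replicates 1 to 4, against 8.86, 8.24, 7.36 and 7.27 in wild-type replicates 1 to 4. The SD was 0.03 in TBC1D4-deficient arrays and 0.76 in wild-type arrays, a ratio of 26.3 in the sense wild-type over TBC1D4-deficient, and the means were nearly the same, with a difference of 0.03 (95% interval -0.63 to 0.69). Gadd45b (probe set 10364950, chromosome 10), a stress sensor that activates the p38 and JNK pathways, had 5.20, 5.20, 5.38 and 5.39 in TBC1D4-deficient arrays, against 6.55, 5.82, 4.62 and 4.74 in wild-type arrays. In both genes wild-type replicates 1 and 2 were above every TBC1D4-deficient array and wild-type replicates 3 and 4 below every one.

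Gadd45g, its relative, had 5.45 to 6.38 in TBC1D4-deficient arrays and 5.22 to 6.69 in wild-type arrays. Ppp1r15a (GADD34), which restores translation after stress, had 5.14 to 5.22 in TBC1D4-deficient arrays and 4.98 to 5.90 in wild-type arrays. Ier2 (probe set 10580183, chromosome 8), an early gene of unclear molecular function, had 3.81, 3.90, 3.83 and 3.65 in TBC1D4-deficient replicates 1 to 4, against 4.45, 3.87, 3.32 and 3.38 in wild-type replicates 1 to 4. These 3 genes also kept every TBC1D4-deficient array inside the wild-type range.

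Ier3 (IEX-1, probe set 10444890, chromosome 17), an early gene linked to survival signalling, was likewise picked after its values were seen. Its TBC1D4-deficient arrays also lay inside the wild-type range, but it was highest in wild-type replicate 2 rather than wild-type replicate 1. It had 6.82, 7.20, 6.95 and 6.66 in TBC1D4-deficient replicates 1 to 4, against 6.98, 7.29, 7.02 and 6.63 in wild-type replicates 1 to 4. Hbegf (probe set 10458340, chromosome 18), a membrane-bound ligand of the EGF receptor, had 4.53, 4.53, 4.21 and 4.46 in TBC1D4-deficient arrays, against 5.13, 4.90, 4.52 and 4.62 in wild-type arrays. The Hbegf groups overlapped slightly, since TBC1D4-deficient replicates 1 and 2 lay just above wild-type replicate 3. Its difference was -0.36 (95% interval -0.65 to -0.07), with an unadjusted limma p of 0.021 and an adjusted p of 0.9999. Ier5, Rhob and Arc were dim, with mean levels below 5. Of these 10 genes, 7 had the lower mean in TBC1D4-deficient tubules and 3 the higher, with a median difference of -0.10, and 0 passed the test.

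Set against genotype, no member was called. By limma with Benjamini-Hochberg adjustment over 23039 probe sets, 0 of the 43 members passed the threshold of 0.05, against 0.00434% of all probe sets, the 1 call being Tbc1d4. At an unadjusted p under 0.05 there were 2 members, Dusp2 and Hbegf, against 2.9% of all probe sets. Groups that did not overlap were found for 1 member with TBC1D4-deficient below wild-type, against 0.99% of genes, and for 0 with TBC1D4-deficient above, against 0.932%. These counts of 2 and 1 of 43 are near the background shares and are no result about the members.

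The signs leaned one way without any gene passing. Of the 43 members, 32 had the lower mean in TBC1D4-deficient tubules and 11 the higher, against 50.4% of all genes with the lower mean. The median difference was -0.09 over the members and -0.0007 over all genes, and the members' differences ran from -0.37 to 0.15. Members that share their variation between arrays do not count as separate evidence. Without wild-type replicate 1 the count was 18 of 43 and the median 0.02, so the lean rested on that array. Within the arrays whose descriptions are numbered 5 to 8, the count was 20 and the median 0.02, and within those numbered 9 to 12 the count was 34 and the median -0.19.

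How closely a genotype effect was bounded differed between members. The 95% interval lay inside 1.5-fold either way for 26 of 43 members, but for 7 of the 20 bright ones, against 18307 of 18782 genes in all. For Jun, Egr1, Atf3 and Nr4a1 a change of 1.5-fold in either direction was within the interval. For Errfi1, Dusp6 and Jund neither direction was.

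The rule of the gene set asked for the spread within each genotype, and this is where the members stood apart in description. The SD was larger among wild-type than among TBC1D4-deficient arrays in 38 of 43 members (88.4%), against 52.3% of all genes. In 17 members (39.5%) the wild-type SD was over 3 times the TBC1D4-deficient SD, against 6.17% of all genes. The median SD of the members was 0.13 in TBC1D4-deficient arrays and 0.35 in wild-type arrays, while over all genes it was 0.11 in both. For the 20 bright members the medians were 0.13 in TBC1D4-deficient arrays and 0.67 in wild-type arrays. All 4 TBC1D4-deficient arrays lay strictly inside the wild-type range for 32 of 43 members (74.4%), against 23% of all genes. These counts rest on 4 arrays per genotype, and members that move together are not separate observations. The members were also chosen with earlier results of these data known, so the shares beside all genes are description only. No test of the difference in spread between genotypes is given. A test tried after the values were seen was dropped, because it found few of the changed spreads in simulated data.

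**Figure D2:**
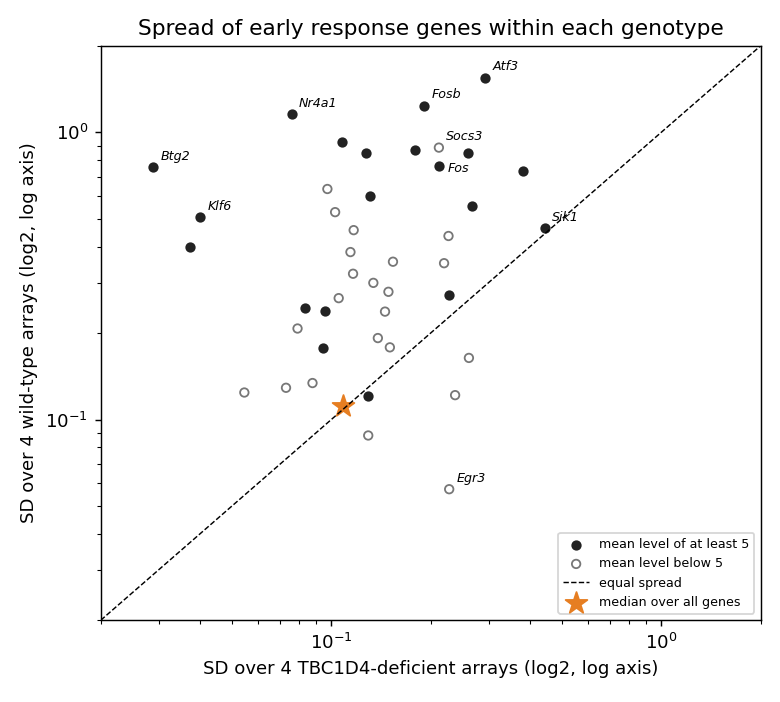
Each point is 1 of 43 early response genes, with its SD over 4 TBC1D4-deficient arrays on the x axis and over 4 wild-type arrays on the y axis (log2 units, both axes logarithmic). 38 points lie above the dashed line of equal spread, with Btg2 farthest from it, and the star marks the median over all genes.

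The members with the largest pooled SD around the genotype means were Atf3, Fosb, Nr4a1, Gadd45b, Socs3 and Zfp36. Set among the 1000 genes of most similar level, the pooled SD of Atf3, Fosb and Nr4a1 was at the percentile 100, that of Socs3 at 99.4, that of Btg2 at 99.2, that of Jun at 99.1 and that of Fos at 99.0. Dusp6, Errfi1, Jund and Mafk were lower, at 92.0, 83.0, 82.9 and 69.7. The median pooled SD was 0.28 over the members and 0.12 over all genes.

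The arrays that were high were few. Wild-type replicate 1 was the highest of the 8 arrays in 31 of 43 members, and it was the highest in 12.9% of all genes. Wild-type replicate 2 was highest in 7 members. Wild-type replicates 3 and 4 were the lowest array in 16 members each, and they were lowest in 12.9% and 14.0% of all genes. TBC1D4-deficient replicate 1 was lowest in 6 members, and TBC1D4-deficient replicate 4 was neither highest nor lowest in any. The median deviation of the bright members from their mean over 8 arrays was -0.09, -0.05, -0.0011 and 0.03 in TBC1D4-deficient replicates 1 to 4, and 0.77, 0.28, -0.53 and -0.30 in wild-type replicates 1 to 4. Array weights estimated by limma from all probe sets were 0.841 to 1.16 in TBC1D4-deficient arrays and 0.773 to 1.19 in wild-type arrays. Wild-type replicate 4 had the lowest weight, and wild-type replicate 1 had 0.918. Such weights reflect the residual spread of each array and do not show whether other genes share this order.

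**Figure D3:**
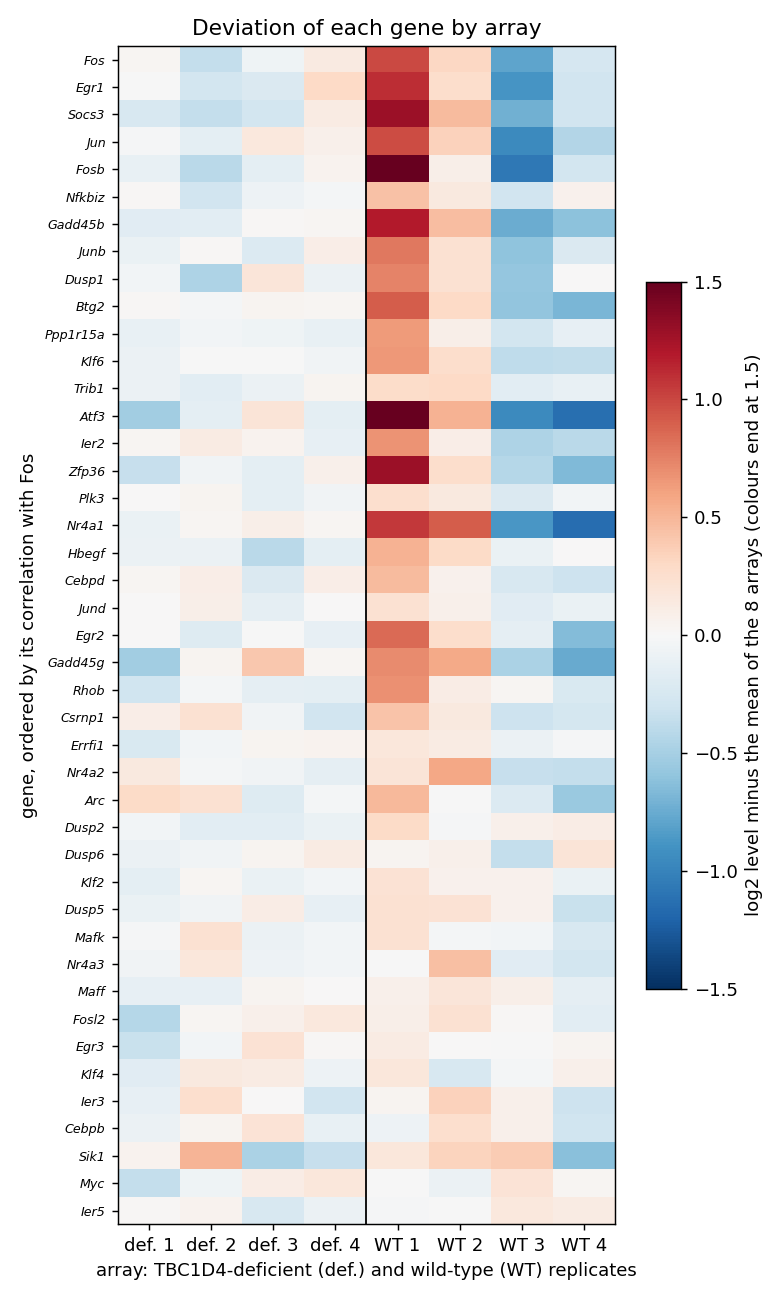
Each row is 1 of 43 early response genes, ordered by its correlation with Fos, and each column 1 of the 8 arrays, with colour giving the log2 level minus the gene's mean over all arrays. In most of the upper rows wild-type replicates 1 and 2 are red and wild-type replicates 3 and 4 blue. Dusp1, Nfkbiz and Hbegf differ, with wild-type replicate 4 not below the mean. The TBC1D4-deficient columns are mostly paler. The order of the wild-type arrays is absent from the lowest rows, which hold Ier3, Cebpb, Sik1, Myc and Ier5.

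Which members move together was measured by their correlation with Fos over the 8 arrays, with each value centred on its genotype mean. Of the squared deviations of Fos, 92.8% lay in the wild-type arrays, so these correlations describe mainly the wild-type tubules. Of 42 members, 19 had a Pearson r of at least 0.8, against 1.74% of all other genes, and 14 had a Spearman coefficient of at least 0.8. Among the 19 bright members other than Fos, 13 (68.4%) had an r of at least 0.8, against 1.45% of the 6874 genes of that level, and the medians were 0.89 and -0.04. The genes of one array share its RNA, so the points of each correlation share a library. Since the members were chosen with earlier results of these data known, these shares are description only.

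A permutation test over the 40320 pairings of arrays, 2-sided, gave an unadjusted p under 0.05 for 22 members, all with a positive r, against 8.93% of all genes. The values permuted were centred on genotype means, and most of the squared deviations of Fos lay in the wild-type arrays. Such values are not freely exchangeable between arrays, so these p-values are approximate. After Benjamini-Hochberg adjustment over the 18781 genes compared with Fos, 0 members passed, against 0% of genes. The smallest p that these permutations can give, 2.48e-05, is too large to pass over so many genes unless many reach it, and the lowest adjusted p was 0.304.

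Egr1 followed Fos most closely, with a Pearson r of 0.987 and a Spearman coefficient of 0.976 (unadjusted permutation p = 0.000198 and 0.000397). Socs3 had r = 0.983 and a Spearman coefficient of 0.976, Jun 0.977 and 0.929, and Fosb 0.961 and 0.857. Further members with a high r were Gadd45b (0.947), Junb (0.943), Dusp1 (0.933), Btg2 (0.914), Klf6 (0.903), Atf3 (0.881), Zfp36 (0.863) and Nr4a1 (0.837). The others of the 19 were Nfkbiz (0.959), Ppp1r15a (0.906), Trib1 (0.893), Ier2 (0.870), Plk3 (0.855), Hbegf (0.825) and Cebpd (0.814). These 19 genes hold AP-1 subunits, other factors, feedback genes and growth arrest genes, so members with a high r came from each of the 4 roles.

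Wild-type replicates 1 and 3 were the arrays farthest from the median of Fos. Without them, over 6 arrays, 14 of the 19 members kept an r above 0.5, and 6 kept one of at least 0.8. Egr1 then had r = 0.919, Fosb 0.978, Socs3 0.914 and Jun 0.854, while Nr4a1 had 0.721 and Ier2, at 0.870 over all arrays, had 0.391. Without wild-type replicate 1 alone, 9 members had an r of at least 0.8. The correlation was not computed within the description number sets, which hold 4 arrays each.

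**Figure D4:**
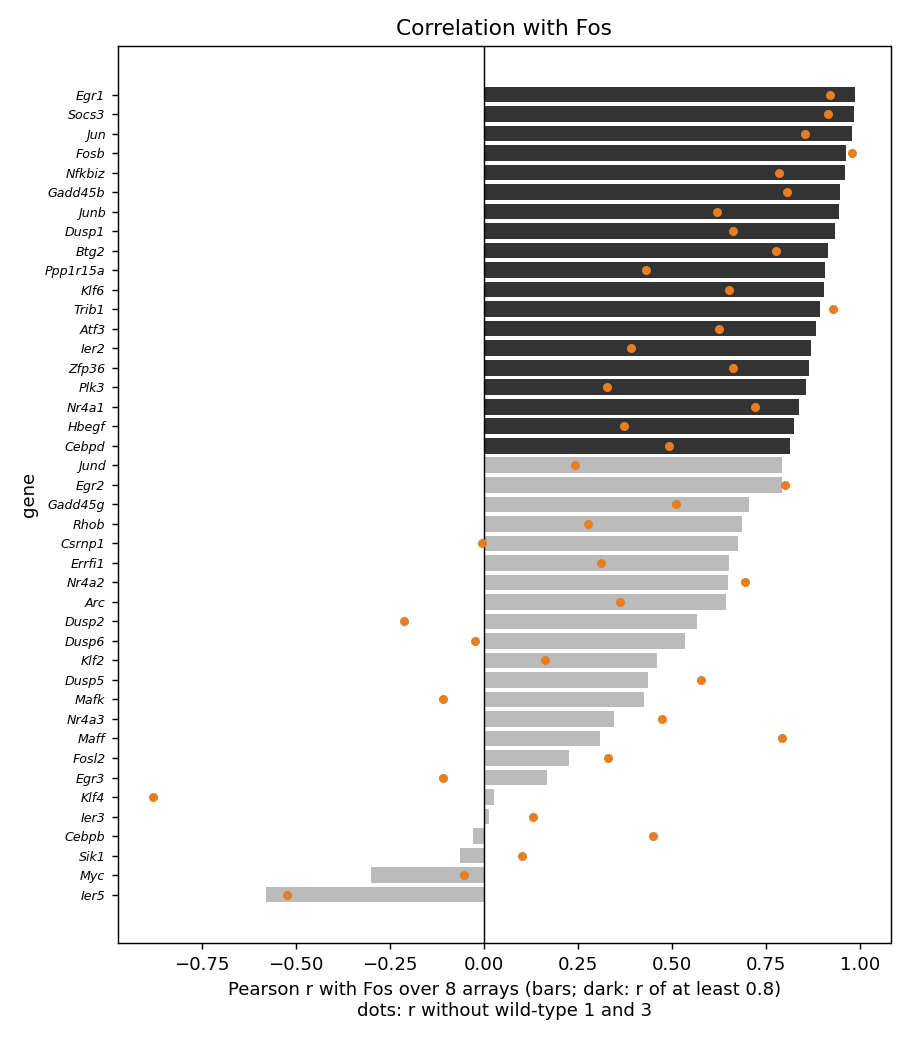
Bars give the Pearson r of each of 42 early response genes with Fos over 8 arrays (values centred on genotype means), dark where r is at least 0.8, and dots give r without wild-type replicates 1 and 3. 19 bars are dark, from Egr1 at 0.987 down, and 4 members have a negative r, with Ier5 at -0.579 the lowest.

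Some members did not move with Fos. Ier3 had r = 0.013 and Sik1 r = -0.063, although both were bright, and Myc and Ier5 had r = -0.300 and -0.579 at dim levels. Among the 190 pairs of bright members the median r was 0.813, with 103 pairs at 0.8 or above and 10 below 0. The highest r of Sik1 with another bright member was 0.796, with Ier3.

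Of the printed promoters, those of Fos, Atf3, Nr4a1, Btg2, Dusp1 and Zfp36 belong to genes that moved together, and that of Ier3 to one that did not. Among the 14 members with a RefSeq promoter that were Fos itself or had an r of at least 0.8 with it, 9 held a CRE half-site, 3 a full CRE, 6 an EGR site and 1 a CArG box. Among the 19 other members with a promoter, 8 held a half-site, 0 a full CRE, 6 an EGR site and 1 a CArG box. The median share of G and C was 65.2% in the 14 and 64% in the 19. These are counts of letters, with no test.

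Outside the gene set, the 5 genes with the highest r with Fos among those of mean level at least 5 were Larp4b (0.978), Snrnp25 (0.946), H3f3b (0.931), Snord14e (0.929) and Zfand5 (0.927). Snord14e, a small nucleolar RNA, had the largest swing of these, with 7.33, 7.18, 7.64 and 7.15 in TBC1D4-deficient replicates 1 to 4, against 8.53, 7.51, 6.41 and 6.76 in wild-type replicates 1 to 4. Larp4b, which encodes an RNA-binding protein, varied far less, at 7.48 to 7.50 in TBC1D4-deficient arrays and 7.53 to 7.61 in wild-type arrays. H3f3b encodes the histone variant H3.3 and Snrnp25 a subunit of the minor spliceosome. The likeness is one of deviations from the genotype means, and for Larp4b every TBC1D4-deficient array was below every wild-type array, which was not so for Fos.

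Other early response genes came from a list of 37 symbols, of which 34 were measured. Of the 34, 13 had the higher mean in TBC1D4-deficient tubules and 21 the lower, against 50.4% of all genes with the lower mean. The adjusted limma test was passed by 0, and 2 had an unadjusted p under 0.05, against 2.9% of all probe sets. These were Spry2, an inhibitor of receptor tyrosine kinase signalling with a difference of 0.28 and an unadjusted limma p of 0.0114, and Rnd3, a small GTPase, with a difference of -0.24 and an unadjusted limma p of 0.0341. The limma adjusted p of each was 0.9999. Irf1 and Spry1 were next, each with a difference of -0.24. An r of at least 0.8 with Fos was found for 3 of the 34 (8.82%), Irf1, Id3 and Bhlhe40, against 1.74% of all other genes. Tnfaip3 of the same list, picked after its values were seen, ran the other way, with r = -0.92. The wild-type SD was the larger in 25 of the 34, against 52.3% of all genes. The list mean deviated by -0.07, -0.01, 0.0046 and -0.02 in TBC1D4-deficient replicates 1 to 4, and by 0.14, 0.17, -0.15 and -0.07 in wild-type replicates 1 to 4.

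The signalling genes upstream were MAP kinases, their activators and the CREB and SRF factors. Of 33 listed symbols 24 were measured, 11 had the higher mean in TBC1D4-deficient tubules and 13 the lower, 0 passed the test and 0 had an unadjusted p under 0.05. The 4 with the smallest p were Creb1 (difference 0.13), Map2k3 (0.11), Crem (-0.14) and Mapkapk2 (0.09). None of the 24 had an r of at least 0.8 with Fos, and the wild-type SD was the larger in 7.

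Heat shock genes are chaperones and their partners that rise under protein damage. Of 13 listed symbols 9 were measured, 2 with the higher mean in TBC1D4-deficient tubules and 7 with the lower, and 0 passed the test or had an unadjusted p under 0.05. The smallest p belonged to Hspe1 (difference -0.06), Hspa8 (0.06), Dnaja1 (-0.08) and Bag3 (0.04). Dnajb1 had 5.72, 5.88, 5.63 and 5.82 in TBC1D4-deficient replicates 1 to 4, against 6.48, 5.82, 5.47 and 5.31 in wild-type replicates 1 to 4, with r = 0.83 with Fos, and was picked after its values were seen. It was the 1 gene of the 9 with an r of at least 0.8, and Hspd1 had r = -0.53. The list mean deviated by 0.03, 0.04, -0.07 and -0.04 in TBC1D4-deficient replicates 1 to 4, and by 0.24, 0.09, -0.0096 and -0.28 in wild-type replicates 1 to 4, with wild-type replicate 1 the highest array and wild-type replicate 4 the lowest.

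Markers of other cell types were read in the same arrays, since in such bulk samples fewer cells of a type and less RNA per cell cannot be told apart. The mean of 19 proximal tubule markers, of 21 listed, deviated by -0.996, 0.16, 0.11 and 0.16 in TBC1D4-deficient replicates 1 to 4, and by -0.54, -0.28, 0.68 and 0.71 in wild-type replicates 1 to 4. Of the 19, 18 had the lower mean in TBC1D4-deficient tubules, against 50.4% of all genes, with a median difference of -0.27. None of them passed the adjusted limma test or had an unadjusted p under 0.05. Their summed intensity was 1911 to 4518.9 in TBC1D4-deficient arrays and 2670.7 to 6019 in wild-type arrays. Among wild-type arrays these markers were thus low where the early response genes were high. In TBC1D4-deficient replicate 1, which had the lowest proximal tubule mean of the 8 arrays, the bright members deviated by -0.09. The part of the proximal tubule markers in the result was not tested.

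Endothelial markers, 14 of 14 measured and chosen with earlier results of these data known, had the lower mean in TBC1D4-deficient tubules in all 14, against 50.4% of all genes. At an unadjusted p under 0.05 there were 8 of these markers, against 2.9% of all probe sets, and 0 passed the adjusted limma test. Their summed intensity was 157.4 to 206.3 in TBC1D4-deficient arrays and 213.7 to 236.3 in wild-type arrays, and their mean deviation did not order the wild-type arrays as the early response genes did, with 0.12, 0.02, 0.21 and 0.18 in wild-type replicates 1 to 4. Macrophage and leukocyte markers, 13 of 14 measured, were dim, with 0 of 13 at a mean level of at least 5, 2 lower in TBC1D4-deficient tubules and 11 higher, and a summed intensity of 100.8 to 119.4 in TBC1D4-deficient arrays and 91.9 to 107.8 in wild-type arrays. Fibroblast and smooth muscle markers, 11 of 11 measured and 9 of them lower in TBC1D4-deficient tubules, summed to 93 to 108.9 in TBC1D4-deficient arrays and 102.9 to 128.5 in wild-type arrays. Thick ascending limb markers, 6 of 6 measured and 5 of them lower in TBC1D4-deficient tubules, summed to 3839.9 to 4106.6 in TBC1D4-deficient arrays and 3945.2 to 4373.9 in wild-type arrays. Principal and intercalated cell markers, 10 of 11 measured and 8 of them lower in TBC1D4-deficient tubules, summed to 1103.1 to 1317.1 in TBC1D4-deficient arrays and 1178.8 to 1387.9 in wild-type arrays. The 12 DCT markers measured, of 13 listed, had 4 lower and 8 higher in TBC1D4-deficient tubules, and summed to 15877.6 to 16203.5 in TBC1D4-deficient arrays and 15707.6 to 16227.4 in wild-type arrays, and their mean deviation stayed between -0.04 and 0.05 in every array. The part of these lists in the order of the arrays was not tested.

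**Figure D5:**
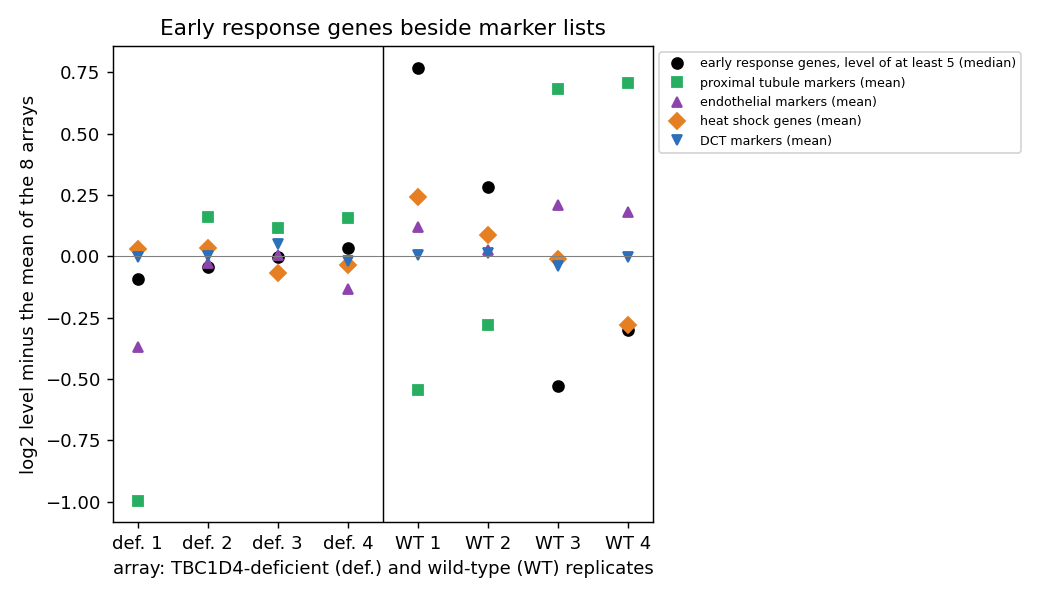
The median deviation of the bright early response genes (black) and the mean deviation of 4 other gene lists are plotted for the 8 arrays, TBC1D4-deficient replicates (def.) left of wild-type replicates (WT), in log2 units from the mean over all arrays. In wild-type arrays the early response genes run from 0.77 to -0.53 and the proximal tubule markers from -0.54 to 0.71, while the DCT markers stay near 0.

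The sample descriptions carry numbers whose meaning is not stated, and these were tested as possible sets. Numbers 9 to 12 against 5 to 8, with 2 arrays of each genotype in both, gave 0.00868% of probe sets called by limma, 0 of them members, with a smallest adjusted p of 0.411 among the members. At an unadjusted p under 0.05 there was 1 member, Maff, against 11.6% of probe sets. The interaction of genotype with number set called 0% of probe sets, and 2 members, Egr3 and Sik1, had an unadjusted p under 0.05, against 4.51% of probe sets, the smaller p being 0.00536 for Sik1 (limma adjusted p = 0.999). Wild-type replicates 1 and 4, of opposite level in many early response genes, are both in the set 9 to 12. Wild-type replicates 2 and 3 are both in the set 5 to 8. By a second number in the descriptions, wild-type replicates 1, 3 and 4 lie in one range and wild-type replicate 2 in the other. The TBC1D4-deficient arrays divide the opposite way, since only their replicate 2 is in the range that holds most wild-type arrays. This second number is thus partly tied to genotype. With its range as a covariate, 37 of 43 members had the lower TBC1D4-deficient mean, against 32 without it. The median difference became -0.1363 and the Fos difference -0.3038, and 0 members were called for genotype.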

How the data were processed

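Total RNA from 8 samples was read on 1-colour Affymetrix arrays. The deposited values are linear intensities of 28371 probe sets, made by the authors with Affymetrix Power Tools according to the submitters' processing notes. The version, the summarisation and how arrays were normalized to each other are not stated there. A normalization to equal distributions would remove any shift common to most genes. The number of arrays, 4 per genotype, limits the precision.

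Log2 was taken of the deposited intensities, with a pseudocount of 0 and no further normalization or filter. Genotypes, description number sets and their interaction were fitted with limma 3.58.1 in R 4.3.3 over 23039 probe sets with at least 1 symbol in the platform annotation (21158 with 1, 1881 with several, 5332 with none), 2-sided, with p-values adjusted by Benjamini-Hochberg and called below 0.05. Intervals are 95% intervals of that fit. Differences are TBC1D4-deficient minus wild-type. Columns that belong to no listed sample: 0. The members and gene lists were chosen with earlier results of these data known. Genes given in every array are 10 set members, the 6 of largest pooled SD, the 3 brightest, those with an unadjusted p under 0.05, and others as marked; the 5 most like Fos and up to 4 per other list are named. Correlations with Fos were planned with adjustment over the members; they are adjusted over all 18781 genes instead, since the members were chosen with results known. The scripts were tested on simulated data. Replicate numbers did not pair the samples. The alternatives were filters, rows tested, renewed normalization, eBayes prior, array weights, blocks, number sets, probe set choice, centring and leaving out each array.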

Additional observations from a re-analysis of the deposited data

Results flagged for a closer look

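In 1 of 86 groups of 4 arrays, 1 array stood far from the other 3. Nr4a3, an orphan nuclear receptor, was at 2.3525 in TBC1D4-deficient replicate 2, against 2.0996, 2.1283 and 2.1382 in the other TBC1D4-deficient arrays. Chance alone gives about 1 such group in 20. The gene was dim in all 8 arrays.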

How the results depend on the processing

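No member was called for genotype under any of the 19 alternatives run, and 0 were called for the number set or the interaction under any of theirs. Tbc1d4 was the 1 genotype call, and with probe sets of mean level at least 5 there were 0, since its own mean is below 5; leaving out each array kept 1 to 1. Members with the lower TBC1D4-deficient mean numbered 32, with 16 of 20 at mean level 5 or above, 20 within numbers 5 to 8, 34 within 9 to 12, and 18 (without wild-type replicate 1) to 41 (without wild-type replicate 4) with each array left out. Their median ran from -0.1889 to 0.0249, turning without wild-type replicate 1. The Fos difference ran from -0.4084 to 0.1843 with each array left out, turning without wild-type replicate 1, and turned to 0.2793 within 5 to 8. The wild-type SD was the larger in 35 to 39 members, and 9 to 21 members had an r of at least 0.8 with Fos as each array was left out (9 without wild-type replicate 1). Number set calls, 2 in all, became 4 with all probe sets, 1 at mean level 5 or above, 0 with the identifier range in its place, and 0 to 4 with an array left out. Interaction calls went from 0 to 11 with an array left out (11 lacking TBC1D4-deficient replicate 1, 3 lacking wild-type replicate 1), none of them members; the cause was not tested. With the replicate block the genotype calls were 1, the members below wild-type 32 and the median -0.0873; the replicate numbers did not pair the samples, since deviations of same-numbered samples correlated at 0.385, -0.199, 0.0264 and 0.022, and 1 of 4 TBC1D4-deficient samples correlated best with its own number. Within each number set a difference rests on 2 arrays per genotype, and signal near background limits the dim members.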
